A study of Mus musculus with 4 samples.

Results

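The 2 ribosomal RNA (rRNA) genes of the mouse mitochondrial chromosome, mt-Rnr1 and mt-Rnr2, and the 3 transfer RNA (tRNA) genes that flank them, mt-Tf, mt-Tv and mt-Tl1, were examined in 2 fractions of heart tissue. The 5 genes were chosen by their place in the rRNA unit of the heavy-strand transcript, without use of their measured values. Earlier results of these data were known when they and the gene lists were chosen. They are 5 of the 15746 genes in the expression table and 5 of its 37 genes of the mitochondrial chromosome. Hearts came from wild-type (WT) adult mice, with no other allele or agent named, and the age was not given in the sources used here. The mitochondrial fraction held isolated mitochondria, and the rest fraction the heart tissue without them, each with 2 libraries made from total RNA. Mitochondria were pelleted from a cleared homogenate, and the methods describe digitonin, which permeabilises membranes that contain cholesterol, and RNase A before their RNA was isolated. The rest fraction was the low-speed pellet of cell debris, and it still held RNA of the mitochondrial chromosome, as the shares below show. The fragmentation of the RNA was also shortened for the mitochondrial libraries, and fraction, RNase treatment and fragmentation cannot be told apart here. The methods name a stranded kit for total RNA and do not say whether rRNA was removed. The part of any such removal in the rRNA levels and ratios below was not tested. Nothing in the labels says that replicates came from separate animals, so that p-values measure only the spread between these libraries, which may be technical.

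The heavy strand of the mitochondrial chromosome is transcribed as a long precursor that begins with the rRNA unit. In this unit mt-Tf (phenylalanine tRNA) precedes mt-Rnr1, the 12S rRNA of the small mitochondrial ribosomal subunit. Between mt-Rnr1 and mt-Rnr2, the 16S rRNA of the large subunit, lies mt-Tv, the valine tRNA, which in mammals can also be built into the large subunit in place of a 5S rRNA. The leucine tRNA mt-Tl1 closes the unit, and its gene holds a binding site of the termination factor MTERF1. RNase P and RNase Z (ELAC2) cut the precursor at both ends of each tRNA and thereby free the rRNAs as well. Heart muscle is rich in mitochondria, and their ribosomes make subunits of the respiratory chain and of the ATP synthase.

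The 3 tRNA genes are shown because their short length limits what the sequencing could measure. Sequences are from GENCODE transcripts on build GRCm38, 5′ to 3′ on the plus strand, with the anticodon in capitals. The gene mt-Tf (ENSMUSG00000064336) covers chrM:1-68, mt-Tv (ENSMUSG00000064338) chrM:1025-1093 and mt-Tl1 (ENSMUSG00000064340) chrM:2676-2750.
mt-Tf: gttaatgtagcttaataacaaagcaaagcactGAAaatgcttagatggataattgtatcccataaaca
mt-Tv: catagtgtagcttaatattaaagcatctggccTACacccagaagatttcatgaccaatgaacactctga
mt-Tl1: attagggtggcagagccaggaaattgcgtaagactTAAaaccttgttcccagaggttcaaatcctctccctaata

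The rRNA genes are single exons on the same strand. mt-Rnr1 (ENSMUSG00000064337) covers chrM:70-1024 over 955 bases, and mt-Rnr2 (ENSMUSG00000064339) chrM:1094-2675 over 1582 bases. The 50 bases around 4 boundaries of the unit show how closely the genes adjoin, with the tRNA in capitals.
chrM:1000-1049, end of mt-Rnr1 and start of mt-Tv: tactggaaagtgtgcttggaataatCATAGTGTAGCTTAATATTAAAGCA
chrM:1069-1118, end of mt-Tv and start of mt-Rnr2: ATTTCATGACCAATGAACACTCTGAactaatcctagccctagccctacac
chrM:2651-2700, end of mt-Rnr2 and start of mt-Tl1: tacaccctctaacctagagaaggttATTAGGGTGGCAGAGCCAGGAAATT
chrM:2726-2775, end of mt-Tl1 and start of mt-Nd1: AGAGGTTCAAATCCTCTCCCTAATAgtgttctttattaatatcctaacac

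A single base separates mt-Tf from mt-Rnr1, and 0 bases lie between the other neighbours, including mt-Tl1 and the mRNA gene mt-Nd1 behind it. A read that crosses such a boundary overlaps 2 genes, and the authors excluded reads of that kind, so that uncut precursors are not in the values of either gene at their junctions. Reads were up to 75 bases long and those of at least 30 bases were kept. A read of 75 aligned bases has 0 start positions wholly within mt-Tf or mt-Tv and 1 within mt-Tl1, against 881 in mt-Rnr1 and 1508 in mt-Rnr2. A read of 30 bases has 39, 40 and 46 start positions in mt-Tf, mt-Tv and mt-Tl1. The GC content was 30.9% in mt-Tf, 39.1% in mt-Tv and 44.0% in mt-Tl1, against 35.8% in mt-Rnr1 and 35.4% in mt-Rnr2.

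Values are normalized counts, that is reads of a gene divided by a size factor for the library. From the spacing of the values, the libraries held about 47400000 and 32100000 reads on genes in mitochondrial replicates 1 and 2, and about 26300000 and 23500000 in rest replicates 1 and 2. A single read was worth 3.87, 2.55, 0.264 and 0.365 normalized counts in the same order, so that in the rest libraries rounding hid single reads. Of the heart muscle markers 8 of 8 were present, with summed levels of 215901 to 290431 normalized counts in mitochondrial and 211067 to 240580 in rest libraries. Myh6 made up most of these sums, which hide differences between the markers. The log2 fold change was positive for 6 of 8, with a median of 1.23 against -0.14 over all tested genes. Tnnt2 had 47913 and 33524 in mitochondrial and 11712 and 10145 in rest libraries, but Ryr2 10159 and 6395 against 22792 and 18549. The 4 nuclear RNAs, among them Malat1, summed to 8745 to 13656 and 42966 to 45512 normalized counts. The 5 endothelial markers summed to 1293 to 1472 and 2294 to 2600, the 5 fibroblast markers to 3440 to 8188 and 2175 to 3063, and the 4 macrophage markers to 195 to 348 and 115 to 138. The 5 erythroid markers summed to 50 to 341 and 440 to 824, with Alas2 at 0 in mitochondrial replicate 1, and 2 smooth muscle markers to 136 to 423 and 588 to 1374. The part of these cell types in the differences below was not tested.

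The 2 mitochondrial libraries stood apart from each other at short genes. Of 81 tested nuclear genes spanning at most 120 bases, 75 were higher in mitochondrial replicate 1 than in replicate 2, with a median log2 ratio of 2.62. Over all 12113 tested nuclear genes the median log2 ratio was 0.02, and 6100 were higher in replicate 1. Without mitochondrial replicate 1, the log2 fold changes of mt-Rnr1, mt-Rnr2 and mt-Tl1 were 3.66, 4.12 and 3.82, and values without it are given below where they moved further.

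Both rRNAs and mt-Tl1 were higher in each mitochondrial library than in each rest library, whereas the fractions overlapped at mt-Tf and mt-Tv. In the comparison of fractions over 12150 tested genes, only mt-Tl1 of the 5 genes passed an adjusted p of 0.05, and 0 of the 5 passed it in the other direction. In this comparison 2.16% of all tested genes were called higher and 1.39% lower in mitochondria. The fractions did not overlap, with mitochondria higher, for 27.7% of all tested genes. In the order of log2 fold change among 12150 genes, mt-Rnr2 stood at place 6, mt-Tl1 at 7, mt-Rnr1 at 9, mt-Tf at 49 and mt-Tv at 655. A log2 fold change above 4 was seen in 12 genes, or 0.0988% of those tested, 3 of them genes of the rRNA unit. Such a value was not particular to the unit. Mitochondrial tRNAs outside it were also above 4, namely mt-Ty, mt-Tc, mt-Tp, mt-Tk, mt-Tt, mt-Td and mt-Te. The remaining tRNAs outside the unit and the mitochondrial mRNAs lay below 4. More mitochondria in a fraction and more RNA in each mitochondrion cannot be told apart in these bulk libraries.

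**Figure D1:**
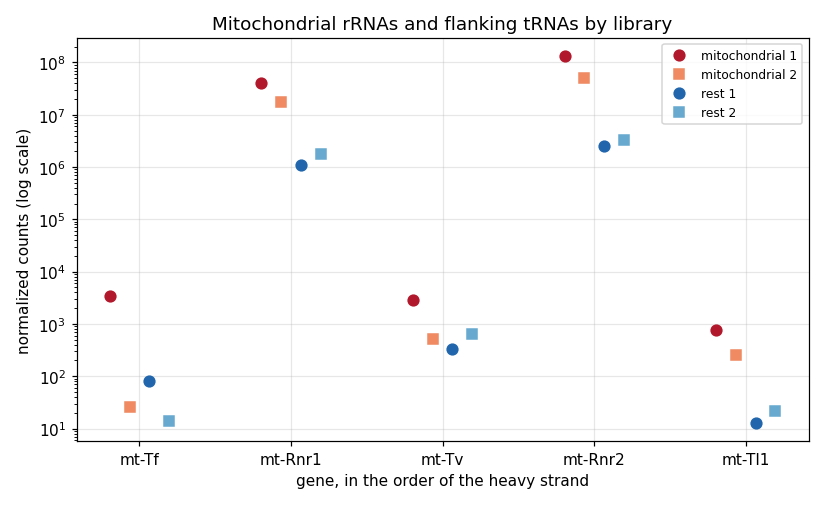
Normalized counts (log axis) of the 5 genes in each of the 4 libraries, with circles for replicate 1 and squares for replicate 2 and no error bars, since each point is a single library. The mitochondrial points lie above both rest points for mt-Rnr1, mt-Rnr2 and mt-Tl1, while mt-Tf falls from 3393 in mitochondrial replicate 1 to 26 in replicate 2.

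The 16S rRNA mt-Rnr2 was the most abundant RNA of the unit. Its normalized counts were 131864839 in mitochondrial replicate 1, 49927537 in mitochondrial replicate 2, 2563033 in rest replicate 1 and 3238075 in rest replicate 2. Even the lower mitochondrial library was 15.4-fold above the higher rest library. The log2 fold change was 4.82 (SE 4.27, n = 2 each, limma, adjusted p = 0.483), with mitochondria higher. It was 0.83 (adjusted p = 0.668) with the library total as the scale and 1.59 (adjusted p = 0.0133) with the 13 mitochondrial mRNAs as the scale.

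The 12S rRNA mt-Rnr1 followed the same order. Its normalized counts were 41369911 and 17673302 in the 2 mitochondrial and 1095952 and 1774070 in the 2 rest libraries. The lower mitochondrial library was 9.96-fold above the higher rest library. The log2 fold change was 4.28 (SE 2.72, n = 2 each, limma, adjusted p = 0.344), against 0.29 (adjusted p = 0.859) with the library total and 1.05 (adjusted p = 0.0762) with the 13 mRNAs as the scale.

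These standard errors are larger than the spread of the rRNAs themselves. The residual standard deviation between replicates was 0.71 for mt-Rnr1 and 0.72 for mt-Rnr2 on the log2 scale. The mean-variance trend used by the test assigned 3.53 and 5.6 at their level, far above nearly all other genes, and the test combined both. When only genes with a mean above 50 normalized counts were fitted, the same fold changes had adjusted p = 0.0198 and 0.0217 in limma, with 14.2% of 5556 genes called higher. Without the trend, an alternative added after the data were seen, adjusted p was 0.0716 and 0.0597, with 0.198% of genes called higher. Over all alternatives that kept the 4 libraries adjusted p ranged from 0.0198 to 0.859 for mt-Rnr1 and from 0.0133 to 0.902 for mt-Rnr2.

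The leucine tRNA mt-Tl1 had few reads but differed between fractions. It had 763 and 253 normalized counts in mitochondrial replicates 1 and 2, from about 197 and 99 reads. The rest libraries had 13 and 22 normalized counts, from about 49 and 60 reads, above the levels of 0.793 and 1.10 that 3 reads reach there. The 95% Poisson intervals, which cover counting error only, were 9.62 to 17.2 and 16.8 to 28.3 in the rest libraries and 660 to 877 and 206 to 308 in the mitochondrial ones. The lower mitochondrial library was 11.5-fold above the higher rest library. The log2 fold change was 4.62 (SE 0.60, n = 2 each, limma, adjusted p = 0.0427), and adjusted p ranged from 0.00726 to 0.312 over the alternatives with all 4 libraries. It was 0.70 with the library total and 1.46 with the 13 mRNAs as the scale. It was past 0.05 in 7 of these 11 alternatives and in 0 of the 4 fits that left out a library. The share of all genes called higher ran from 0% to 14.2% over the 11 alternatives, and was 0% in each of the 4 fits.

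The phenylalanine tRNA mt-Tf varied more between replicates than between fractions. It had 3393 and 26 normalized counts in mitochondrial replicates 1 and 2, from about 876 and 10 reads, and 81 and 14 in the rest replicates, from about 307 and 38 reads. Mitochondrial replicate 2 lay below rest replicate 1, so that the fractions overlapped. The gap of 130.5-fold between the mitochondrial libraries was the largest among the 22 mitochondrial tRNAs. It exceeded the counting error, since the 95% Poisson intervals were 3172 to 3625 and 12.6 to 47.5 normalized counts. The log2 fold change was 3.11 (SE 2.42, n = 2 each, limma, adjusted p = 0.428), and it was -0.38 without mitochondrial replicate 1 and -0.79 with the library total as the scale.

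The valine tRNA mt-Tv, which lies between the rRNAs, had the second lowest fold change of the 22 tRNAs, after mt-Tw. Its normalized counts were 2901 in mitochondrial replicate 1, 523 in mitochondrial replicate 2, 326 in rest replicate 1 and 638 in rest replicate 2. Mitochondrial replicate 2 lay between the rest libraries, with about 205 reads against about 1234 and 1746. The log2 fold change was 1.43 (SE 0.88, n = 2 each, limma, adjusted p = 0.329), and it was 0.20 without mitochondrial replicate 1. Scaled to the library total, mt-Tv was lower in mitochondria, at -2.55 on the log2 scale (limma, adjusted p = 3.53e-05), where 98.9% of all tested genes were called lower.

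The size of all 5 fold changes depended on the scaling, as did the direction for mt-Tf and mt-Tv, while both rRNAs and mt-Tl1 stayed positive under each scaling tried. The mitochondrial chromosome took 97.6% and 93.5% of the normalized counts of the mitochondrial libraries and 63.2% and 67.5% of the rest libraries. The 2 rRNAs alone took 94.5% and 82.5% of the mitochondrial and 52.6% and 58.4% of the rest libraries. Under the library total they were thus divided largely by themselves, so that their positive sign there is not an independent check. The median log2 fold change of all tested genes was -0.14 as deposited, -0.98 after scaling to the total without the mitochondrial chromosome, -3.24 after scaling to the 13 mitochondrial mRNAs and -3.93 after scaling to the library total. A scaling shifts all genes of a library nearly alike, so that subtracting the median cancels most of it by construction. The filter, block and trend settings leave the fold change of a gene as it is. Relative to that median, the fold changes thus had to move little over the 12 settings with all libraries, which is no check of them. They ranged from 4.76 to 5.07 for mt-Rnr2, from 4.22 to 4.53 for mt-Rnr1, from 4.15 to 4.87 for mt-Tl1, from 3.0 to 3.37 for mt-Tf and from 1.38 to 1.69 for mt-Tv.

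**Figure D2:**
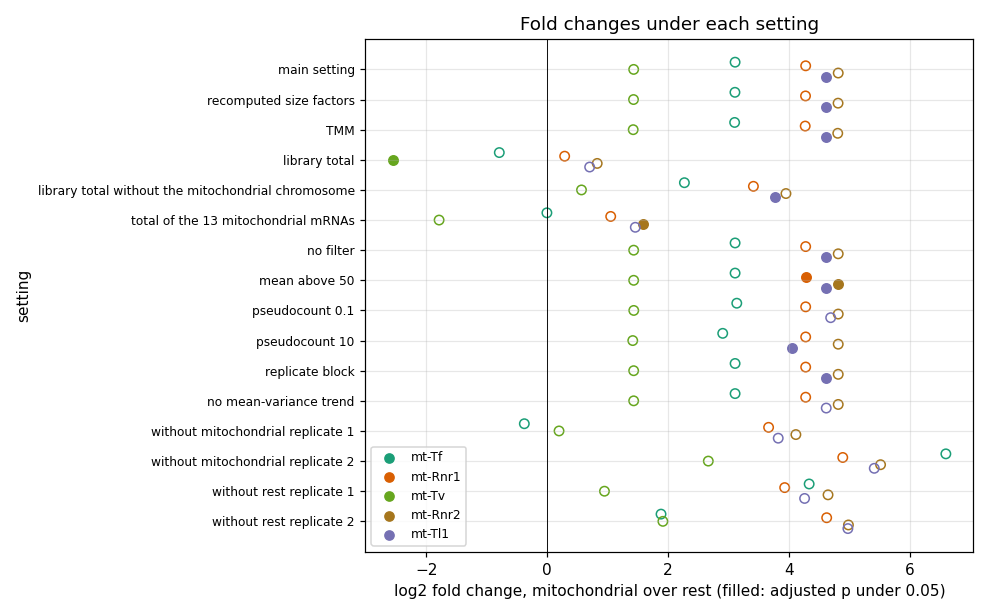
Log2 fold change, mitochondrial over rest, of the 5 genes under each setting, with filled points where adjusted p was under 0.05 and without error bars. Scaling to the library total and to the 13 mitochondrial mRNAs moves all points to the left, with mt-Tv at -2.55 and -1.79, and the fits that leave out 1 library hold no filled point.

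The order of the genes within a library, per base of gene length, does not depend on the scaling, whereas the levels themselves do. Per 1000 bases, mt-Rnr2 reached 83353200 and 31559800 normalized counts in the mitochondrial and 1620120 and 2046820 in the rest libraries. The level of mt-Rnr1 was 43319300, 18506100, 1147590 and 1857660 in the same order. In each of the 4 libraries mt-Rnr2 was thus above mt-Rnr1, and both were above the 3 tRNAs. Among the tRNAs mt-Tv was highest in 3 libraries, with 7580 normalized counts per 1000 bases in mitochondrial replicate 2 and 4725 and 9246 in the rest libraries. In mitochondrial replicate 1 mt-Tf, at 49897, was above mt-Tv, at 42043. The lowest was mt-Tl1 in mitochondrial replicate 1, at 10173, and in rest replicate 1, at 173, but mt-Tf in the others, at 382 and 206. The order of mt-Tf and mt-Tl1 therefore did not hold beyond the spread between replicates.

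The 16S rRNA exceeded the 12S rRNA by more in mitochondria than in the rest fraction. The ratio of mt-Rnr2 to mt-Rnr1 per base was 1.92 and 1.71 in mitochondrial replicates 1 and 2 and 1.41 and 1.10 in rest replicates 1 and 2. The mean log2 ratio was 0.86 ± 0.12 against 0.32 ± 0.25 (SD, n = 2 each), a difference of 0.54, and the fractions did not overlap. For this and the other ratios and shares, the smallest two-sided p that exact permutation of 2 libraries and 2 allows is 0.33. Leaving out single libraries kept the difference between 0.36 and 0.72. By share, mt-Rnr2 made up 76.1% and 73.9% of the counts of both rRNAs in mitochondria and 70.0% and 64.6% in the rest libraries.

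**Figure D3:**
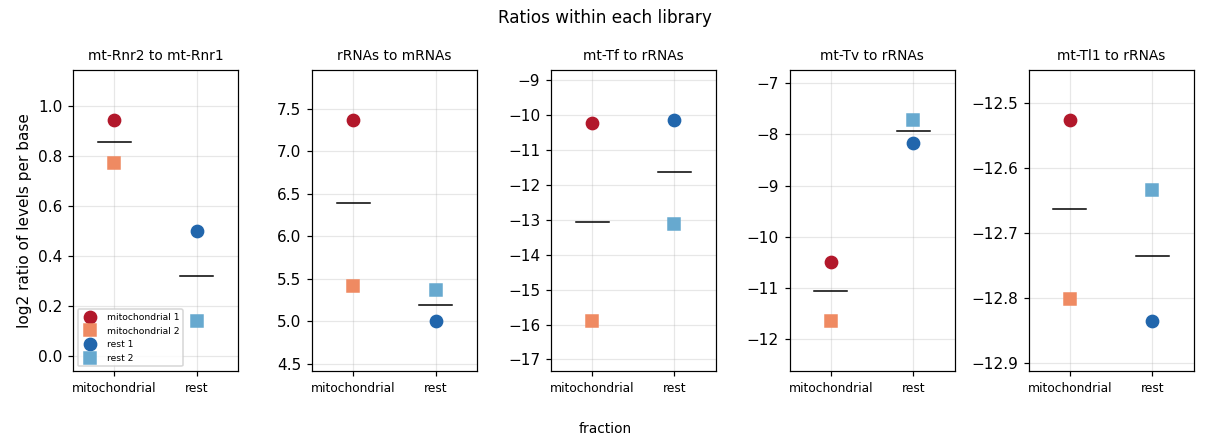
Log2 ratio of levels per base in each library, in 5 panels with axes of their own, where points are single libraries and black lines are the means of the 2 libraries of a fraction. The fractions are separate for mt-Rnr2 to mt-Rnr1 and for mt-Tv to the rRNAs, nearly touch for the rRNAs to the mRNAs, and overlap for mt-Tf and mt-Tl1 to the rRNAs.

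The tRNAs differed in how they kept to the rRNAs. Per base, mt-Tl1 was 5899-fold and 7136-fold below the mean of the rRNAs in mitochondrial replicates 1 and 2, and 7305-fold and 6359-fold below it in rest replicates 1 and 2. The log2 ratios averaged -12.66 ± 0.19 and -12.73 ± 0.14 (SD, n = 2 each), and their difference of 0.07 was smaller than the spread between replicates. With mt-Rnr2 alone, which adjoins mt-Tl1, the difference was -0.20.

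In contrast, mt-Tv was 1429-fold and 3182-fold below the rRNAs in mitochondria but 288-fold and 211-fold below them in the rest fraction. The log2 ratios averaged -11.06 ± 0.82 and -7.94 ± 0.32 (SD, n = 2 each), and the difference of -3.11 exceeded the spread between replicates. It ranged from -3.69 to -2.54 with 1 library left out. A drop without overlap was not particular to mt-Tv among the mitochondrial tRNAs. The log2 ratio to the rRNAs of mt-Th was -10.86 and -12.46 in mitochondria and -8.40 and -8.85 in the rest libraries. For mt-Tg it was -9.31 and -9.90 against -7.14 and -7.84. The ratio was also lower in mitochondria without overlap for mt-Ta, mt-Tw, mt-Tn, mt-Tm, mt-Tr, mt-Ti and mt-Tl2. At the remaining tRNAs outside the unit, such as mt-Tp, the fractions overlapped. The ratio of mt-Tl1 to mt-Tv, the leucine to the valine tRNA, was 0.242 and 0.446 in mitochondria and 0.0394 and 0.0331 in the rest libraries, without overlap.

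No such order was seen for mt-Tf, which was 1204-fold and 60865-fold below the rRNAs in mitochondria and 1131-fold and 8840-fold in the rest libraries. Replicate 1 had the higher ratio in both fractions, and the difference between fractions ran from -4.27 to 1.39 on the log2 scale with 1 library left out.

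Against the mRNAs of the same chromosome, the rRNAs were far higher in mitochondrial replicate 1 than in the other libraries. Per base, the rRNAs were 165-fold above the median of the 13 mRNAs in mitochondrial replicate 1 and 42.8-fold above it in replicate 2. In rest replicates 1 and 2 they were 32.1-fold and 41.3-fold above it. The difference between fractions of 1.21 on the log2 scale rested on mitochondrial replicate 1 and was 0.23 without it.

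For single mRNAs, the ratio was lowest to mt-Co1, a subunit of cytochrome oxidase, and highest to mt-Nd3, a subunit of complex I. To mt-Co1 it was 66.8 and 16.8 in mitochondrial and 10.8 and 15.2 in rest libraries, and to mt-Nd3 it was 545 and 125 against 116 and 130. The mean log2 ratio was higher in mitochondria for 13 of 13 mRNAs, but the fractions did not overlap for only 8 of them. To mt-Nd1, the complex I subunit directly behind the unit, the ratio of mt-Rnr2 was 168 and 31.2 in mitochondria and 21.9 and 20.6 in the rest libraries. The difference between fractions was 1.77 on the log2 scale and 0.56 without mitochondrial replicate 1.

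**Figure D4:**
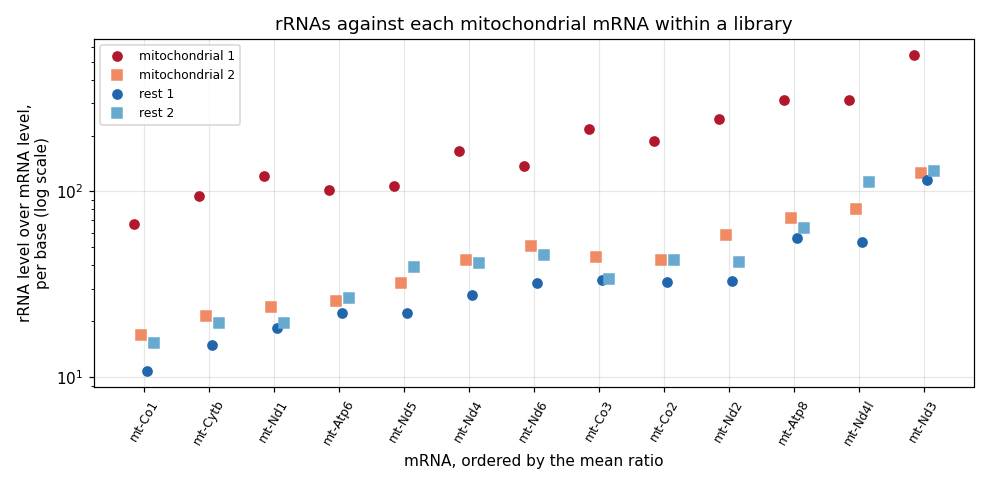
Ratio per base (log axis) of the mean rRNA level to each of the 13 mitochondrial mRNAs in the 4 libraries, ordered by the mean ratio, with each point a single library and no error bars. Mitochondrial replicate 1 lies between 66.8 and 545, above the other 3 libraries at every mRNA, while mitochondrial replicate 2, between 16.8 and 125, lies close to the rest libraries.

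The share of the chromosome's normalized counts taken by the 2 rRNAs was 96.8% and 88.2% in mitochondrial replicates 1 and 2 and 83.2% and 86.5% in rest replicates 1 and 2. The means were 92.5% ± 6.08 and 84.8% ± 2.32 (SD, n = 2 each), and without mitochondrial replicate 1 their difference fell from 7.68 to 3.38 percentage points. The 13 mRNAs took 3.11% and 11.7% in mitochondria and 16.7% and 13.4% in the rest libraries. Summed, the 3 flanking tRNAs took 0.00394% and 0.00105% against 0.00955% and 0.0116%, and this sum was thus lower in both mitochondrial libraries. Of the 3, only mt-Tv was lower in both, at 0.00162% and 0.000683% against 0.00741% and 0.0110%. The fractions overlapped for mt-Tl1, at 0.000426% and 0.000330% against 0.000296% and 0.000380%. They also overlapped for mt-Tf, at 0.00190% and 3.39e-05% against 0.00184% and 0.000242%. Of the counts of all 22 tRNAs, these 3 held 5.58% and 2.79% in mitochondria and 14.2% and 13.8% in the rest fraction, most of it mt-Tv in each rest library.

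Among the other genes of the chromosome, 6 mRNAs and 1 tRNA were called higher as deposited, against 2.16% of all tested genes. With the library total as the scale 5 genes were called lower, against 98.9% of all tested genes. Of the 13 mRNAs 0 were called lower as deposited, and the fractions did not overlap for 13 of 13, with a median log2 fold change of 3.24. Examples are mt-Nd4l, a complex I subunit, at 3.52 (SE 0.37, limma, adjusted p = 0.0427) and mt-Atp6, a subunit of the ATP synthase, at 3.47 (SE 0.54, limma, adjusted p = 0.0493). Of the 19 other tRNAs, the one called higher was the cysteine tRNA mt-Tc at 5.13 (SE 0.58, limma, adjusted p = 0.0427). The fractions did not overlap for 17 of these 19, with mt-Tw and mt-Tr as the exceptions. Their median log2 fold change was 3.74, and 2.07 without mitochondrial replicate 1. The level per base closest to the rRNAs among the 22 tRNAs was that of the proline tRNA mt-Tp, and the furthest below was the serine tRNA mt-Ts2. By log2 fold change, mt-Tl1 held place 5, mt-Tf place 14 and mt-Tv place 21 among the 22.

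The classes differed in how the 2 mitochondrial libraries compared. As deposited, both rRNAs were higher in mitochondrial replicate 1 than in replicate 2, mt-Rnr1 by 2.34-fold and mt-Rnr2 by 2.64-fold. So were 21 of 22 tRNAs, among them mt-Tl1 by 3.02-fold and mt-Tv by 5.55-fold, with the glutamate tRNA mt-Te as the exception at 0.555. In contrast, 0 of 13 mRNAs were higher in replicate 1, and their ratios ran from 0.492 to 0.929. Short nuclear genes moved in the direction of the tRNAs, as given above, and their part in this was not tested.

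**Figure D5:**
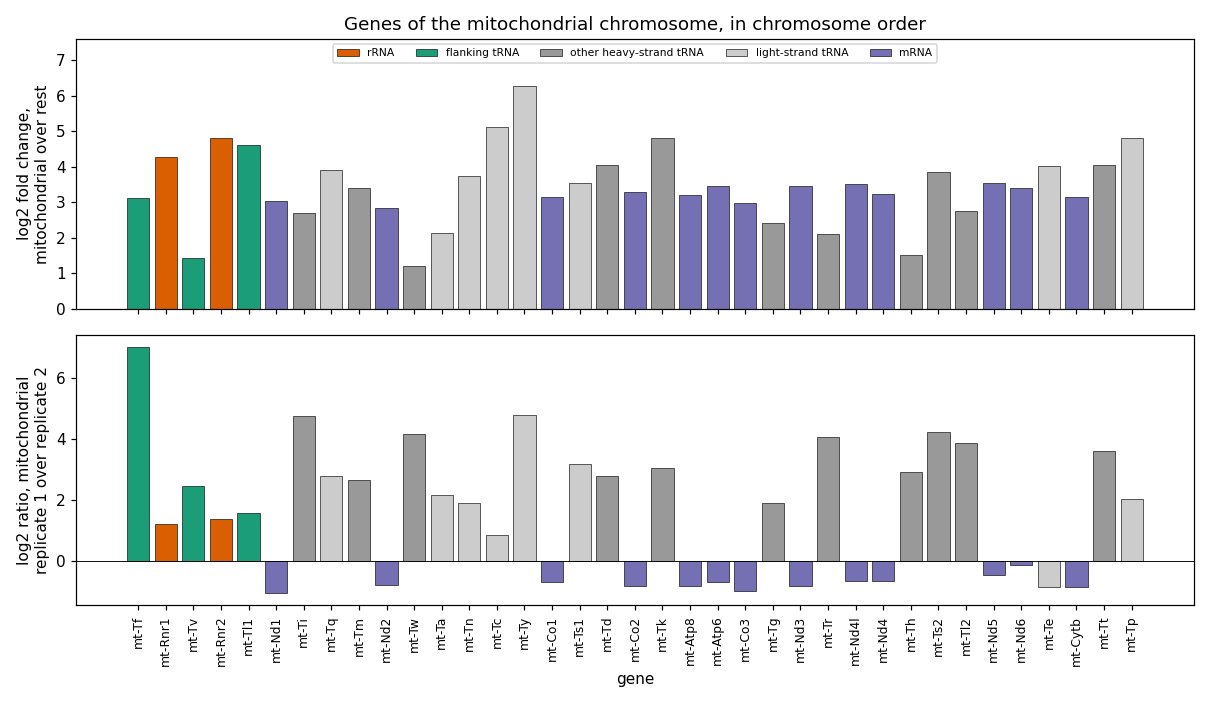
The 37 genes of the mitochondrial chromosome in their order on it, with bars for the log2 fold change of mitochondrial over rest libraries (top) and for the log2 ratio of mitochondrial replicate 1 over replicate 2 (bottom), coloured by class and without error bars. All top bars are positive as deposited, with mt-Tv at 1.43 (-2.55 if the library total is the scale), and the bottom bars are positive for both rRNAs and 21 of 22 tRNAs and negative for all 13 mRNAs.

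Across the 4 libraries, the profiles of mt-Rnr2, mt-Tl1 and mt-Rnr1 lay close together. The Euclidean distance of log2 profiles, each centred on its mean, was 0.359 between mt-Rnr2 and mt-Tl1, 0.426 between mt-Rnr1 and mt-Tl1 and 0.607 between the rRNAs. The valine tRNA mt-Tv was 2.98 to 3.50 away from these 3 genes, and mt-Tf was 4.34 to 4.78 away from the other 4. Among 5551 other genes with a mean above 50 normalized counts, the nearest to the mean rRNA profile were the tRNAs mt-Tn at 0.980, mt-Tp at 0.992 and mt-Tq at 1.22, with Gm11407 at 1.11 and Gm20594 at 1.19. The median distance was 4.70. The 3 flanking tRNAs lay 3.25 to 4.67 from each other, so that their mean profile averages unlike profiles and stands for none of them. Nearest to this mean were Mettl26 at 0.481 and the tRNAs mt-Ts1 at 0.614, mt-Tm at 0.882, mt-Ti at 0.961 and mt-Tr at 1.08, with a median of 3.99. These distances are descriptions over only 4 libraries, which differ in depth, and all genes in a library share its depth and size factor.

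The nuclear genes whose products serve the rRNA unit had smaller fold changes. Of 121 tested genes of this machinery, 7 were called higher and 0 lower as deposited. With the library total as the scale 0 were higher and 120 lower, where 98.9% of all tested genes were called lower. Their median log2 fold change as deposited was 0.77, against -0.14 over all 12150 genes, of which 2.16% were called higher. All 7 encode proteins of the mitochondrial ribosome, 3 of 27 tested for the small subunit and 4 of 48 for the large subunit. A positive fold change was seen for 73 of these 75, against 5318 of all 12150 tested genes. In the small subunit, Mrps21 had 151 and 125 normalized counts in mitochondrial and 27 and 27 in rest libraries, a log2 fold change of 2.31 (SE 0.24, limma, adjusted p = 0.0427). Mrps25 was at 1.57 (SE 0.21, adjusted p = 0.0441) and Mrps15 at 1.55 (SE 0.20, adjusted p = 0.0427). In the large subunit, Mrpl30 had 376 and 265 against 77 and 86, a log2 fold change of 1.94 (SE 0.24, limma, adjusted p = 0.0427), Mrpl42 was at 1.83 and Mrpl54 at 1.68.

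None of the lists for making, cutting, modifying or degrading the RNAs held a call in limma. Over all tested genes, 14.1% were higher and 16.2% lower at an unadjusted p under 0.05. Of 8 tested genes for transcription, 0 were called and 3 had an unadjusted p under 0.05, 2 of them higher and 1 lower in mitochondria. Mrpl12, a ribosomal protein that also binds the mitochondrial RNA polymerase, had a fold change of 1.01 on the log2 scale (adjusted p = 0.0650), and the transcription factor Tfam at 0.85 (adjusted p = 0.127). Of 7 genes for cutting and maturing the ends, 0 were called and 1 had an unadjusted p under 0.05. Hsd17b10, a subunit of mitochondrial RNase P, was at 1.36 (adjusted p = 0.0511), and Trnt1, which adds the CCA end to tRNAs, at 0.18. Of 10 genes for rRNA modification 0 were called and 1 had an unadjusted p under 0.05. There Tfb2m, a transcription factor related to rRNA methyltransferases, was at 0.54, and Nsun4, an rRNA methyltransferase, at -0.40. Of 13 genes for ribosome assembly 0 were called and 2 had an unadjusted p under 0.05, with the helicase Dhx30 at -0.89 and the GTPase Mtg1 at 1.32. Of 7 genes for decay and stability 0 were called and 2 had an unadjusted p under 0.05, with the mRNA-stabilising Lrpprc at -0.30 and the RNA granule protein Grsf1 at 0.64.

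The synthetases that charge the 3 flanking tRNAs gave 0 calls among 3 in limma, and 0 had an unadjusted p under 0.05. Fars2, for phenylalanine, had 66 and 71 normalized counts in mitochondrial and 61 and 46 in rest libraries, and Vars2, for valine, 23 and 26 against 34 and 28. Lars2, for leucine, had 1929 and 52653 in mitochondrial and 1440 and 113689 in rest libraries, and thus separated the replicate numbers and not the fractions. Whether these values reflect the synthetase mRNA was not tested, and they are not read here as its expression.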

How the data were processed

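RNA-seq libraries from the mitochondrial and the rest fraction of mouse heart were used, 2 of each, grouped by the labels. The submitters' processing notes name Trimmomatic 0.39, STAR 2.7.10a, featureCounts 2.0.2, DESeq2 1.30.1 and build mm10. Reads that overlapped more than 1 gene or aligned at more than 1 place were excluded by the authors. The deposited values are a signal: for each library the authors divided gene counts by a size factor and rounded them. The methods name a stranded kit for total RNA (SMARTer, Pico Input Mammalian). They do not say whether rRNA was removed from the libraries or whether counting used strand. Whole reads could not be restored in the rest libraries, so that no test of counts was run.

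Fractions were compared with limma 3.58.1 (R 4.3.3, empirical Bayes with a mean-variance trend, no replicate term) on log2 of the value plus 1. The fit held the 12150 genes that reached 10 normalized counts in 2 or more libraries, and the 5 genes of the rRNA unit all passed. Benjamini-Hochberg adjustment covered all genes of the fit, with a limit of 0.05. The fit was also run on simulated data, which had less spread between replicates than the 5 genes and are therefore no check of the fit at these genes. Ratios per length used the same pseudocount, and were given per library with no test. Reads per gene were approximated from the spacing of values, and Poisson intervals at 95% were computed from them. Similar transcripts were searched with blastn 2.17.0.

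The genes of the unit and all lists were chosen with earlier results of these data known. Named beside the 5 genes and the 3 synthetases were, per list, the 3 genes with the largest fold change among those called, or else those with the highest mean, not all of them printed. Also named were the mRNA and tRNA with the highest and lowest ratio to the rRNAs, and the 5 genes nearest in profile. Alternatives were recomputed size factors, TMM (trimmed mean of M-values), the library total as the scale, that total without the mitochondrial chromosome or the 13 mitochondrial mRNAs, no filter, a mean above 50, pseudocounts of 0.1 and 10, a replicate block, each library left out, and, added after the data were seen, no mean-variance trend.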

Additional observations from a re-analysis of the deposited data

How the results depend on the processing

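The precision is limited by 2 libraries per fraction and, for the tRNAs, by few reads and by genes no longer than a full read. With the library total as the scale, log2 fold changes were 0.29 for mt-Rnr1, 0.83 for mt-Rnr2, -0.79 for mt-Tf, -2.55 for mt-Tv and 0.70 for mt-Tl1 (limma, adjusted p = 0.312), and scaled to the 13 mitochondrial mRNAs they were 1.05, 1.59, -0.0038, -1.79 and 1.46 (adjusted p = 0.0590 for mt-Tl1). Under the latter mt-Rnr2 passed (adjusted p = 0.0133). With a mean above 50, mt-Rnr1 at 4.28 and mt-Rnr2 at 4.82 passed, and mt-Tl1 did not pass with a pseudocount of 0.1 (4.69, adjusted p = 0.0582) or without the trend (4.62, adjusted p = 0.0764).

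Of the 5 genes, 0 were called higher with the library total (1 lower), 0 with a pseudocount of 0.1, 0 without the trend and 3 with a mean above 50. At an unadjusted p under 0.05 these 4 settings gave 0, 1, 3 and 3. Against 262 higher and 169 lower calls of all genes, limma gave 439 and 348 with TMM, 2 and 12022 with the library total, 129 and 3819 when that total left out the mitochondrial chromosome, 5 and 11856 with the 13 mRNAs, 790 and 670 with a mean above 50, and 536 and 580 with a pseudocount of 10. It gave 0 and 0 with a pseudocount of 0.1, where 1694 and 1754 had an unadjusted p under 0.05. Without the trend 24 were higher, and without the filter 630 were lower. The machinery genes called higher, 7 of 121, became 12 with TMM, 0 with the library total, 2 when this left out the chromosome, 0 with the 13 mRNAs, 24 with a mean above 50, 0 with a pseudocount of 0.1, 14 with 10 and 0 without the trend, and 120 were lower under the library total, 8 without the chromosome in it and 118 under the 13 mRNAs. The other mitochondrial genes called higher became 13, 1, 16, 2, 24, 0 and 16 with TMM, the library total, that total without the chromosome, the 13 mRNAs, a mean above 50, and pseudocounts of 0.1 and 10, and 5 were lower with the library total.

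The difference in the ratio of mt-Tl1 to the rRNAs, 0.07, was -0.49 with a pseudocount of 10 and -0.20 with the adjoining rRNA. As shares of the whole library, the differences were 33.0 percentage points for the rRNAs and -0.0045 for the flanking tRNAs. The causes were not tested.

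Libraries share replicate numbers, but nothing says that a number marks a pair, and the replicate differences of the fractions correlated at r = 0.130 across 12150 genes. A replicate block gave 470 higher and 309 lower calls, 12 machinery genes and 17 other mitochondrial genes, and it changed the call of none of the 5 genes.

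With 1 library left out, the lone library was assumed to vary like the other fraction. The fold changes ran from 3.66 to 4.89 for mt-Rnr1, 4.12 to 5.52 for mt-Rnr2, -0.38 to 6.60 for mt-Tf, 0.20 to 2.67 for mt-Tv and 3.82 to 5.41 for mt-Tl1 (adjusted p = 0.0523 to 0.526). All counts of calls ran from 0 to 0 in limma, whichever library was left out, with 590 to 2333 genes higher and 468 to 3324 lower at an unadjusted p under 0.05. The ratio differences ran from 0.36 to 0.72 for mt-Rnr2 to mt-Rnr1, 0.23 to 2.18 for the rRNAs to the mRNAs, -4.27 to 1.39, -3.69 to -2.54 and -0.07 to 0.21 for mt-Tf, mt-Tv and mt-Tl1 to the rRNAs, and the share differences from 3.38 to 12 and -0.0095 to -0.0066.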

Other observations

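2 nuclear transcripts resemble the rRNA unit in sequence. Gm20594, on another chromosome, was 88.4% identical to mt-Rnr2 over 439 aligned bases, bases 645 to 1077 of mt-Rnr2. It shared 44 of the 1553 stretches of 30 bases in mt-Rnr2, or 2.83%, and 0 of the 1508 stretches of 75 bases. Its values were 37901 and 9525 normalized counts in mitochondrial and 1094 and 2405 in rest libraries. The values of mt-Rnr2 and Gm20594 are therefore uncertain for the shortest reads. The transcript of Cep295, a centrosomal protein gene, matched the opposite strand of mt-Rnr2 at 78.7% identity over 661 bases and of mt-Tl1 at 93.5% over 62 bases. It had 209 and 82 normalized counts in mitochondrial and 77 and 90 in rest libraries. For mt-Tf, mt-Rnr1, mt-Tv and mt-Tl1, 0 stretches of 30 bases were shared with another transcript.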
